A study of Mus musculus with 4 samples.

Results

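The opioid system of the mouse lateral habenula was described here through 7 genes, 3 that encode opioid peptide precursors (Penk, Pdyn and Pnoc) and 4 that encode opioid receptors (Oprm1, Oprd1, Oprk1 and Oprl1). The genes were taken by name, by matching the Ensembl identifiers of the count matrix to symbols, and all 7 were found among its 53465 identifiers. All 7 also passed the low-count filter, which left 17528 genes for testing. RNA came from dissected lateral habenula, an epithalamic nucleus, of C57BL/6 mice, and poly(A) RNA was sequenced in 4 libraries. There were 2 libraries of group-housed mice, the controls, and 2 of socially isolated mice, and the series asks whether acute isolation alters this nucleus. No transgene or drug is given for either group. The sources used here give no age, sex or length of isolation, nor whether a library came from 1 animal or from a pool. The p-values therefore measure only the spread between these libraries, which may be technical.

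Opioid peptides are cut from larger precursor proteins at pairs of basic residues. Proenkephalin (Penk) gives Met- and Leu-enkephalin, which act mainly on the delta and mu receptors (Oprd1, Oprm1). Prodynorphin (Pdyn) gives dynorphins and neoendorphins, which prefer the kappa receptor (Oprk1), and prepronociceptin (Pnoc) gives nociceptin, the ligand of the nociceptin receptor (Oprl1). The 4 receptors couple to inhibitory G proteins of the Gi/o family, which open potassium channels, close calcium channels and lower cyclic AMP. The habenula is known as a site of mu receptor expression, densest in its medial part, and the lateral habenula is studied for its part in aversion.

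The coding sequences show what each precursor transcript can yield. The following stretches are 27 bases long, read 5′ to 3′ on the coding strand from the annotated transcripts (GENCODE M21, GRCm38). The capitals mark the 5 codons of the peptide's start, and the lower-case bases on either side are the 2 flanking codons. They are shown because the precursors differ in how many such copies they carry.
Penk, first Met-enkephalin copy: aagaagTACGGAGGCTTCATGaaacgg
Penk, Leu-enkephalin copy: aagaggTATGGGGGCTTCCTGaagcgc
Pdyn, Leu-enkephalin core 1: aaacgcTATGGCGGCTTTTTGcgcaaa
Pdyn, core 2: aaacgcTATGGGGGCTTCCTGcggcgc
Pdyn, core 3: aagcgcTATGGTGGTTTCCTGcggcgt
Pnoc, start of nociceptin: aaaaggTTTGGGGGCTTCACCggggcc

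Penk encoded 7 copies of the opioid core within 268 codons, 6 of the Met-enkephalin and 1 of the Leu-enkephalin type, all 7 in exon 2 of the 2-exon transcript. Its first copy lies at chr4:4134328-4134354 and its Leu-enkephalin copy at chr4:4133935-4133961, on the minus strand. Pdyn encoded 3 copies within 248 codons, all in exon 4 of 4, at chr2:129688232-129688258, chr2:129688124-129688150 and chr2:129688067-129688093 on the minus strand. Each of these 3 is followed by further residues in neoendorphin and the dynorphins. Pnoc encoded 1 copy of the related core that begins with phenylalanine, within 212 codons, in exon 3 of 4 at chr14:65404872-65404898 on the minus strand. The search was for the codons of tyrosine or phenylalanine followed by glycine, glycine and phenylalanine, in the longest complete coding sequence of each gene. Each of the 11 copies directly followed a pair of basic codons. The same was found in 5 of 21778 protein-coding genes (0.0230%), the others being Pomc, the precursor of beta-endorphin, and Ppm1k.

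**Figure D1:**
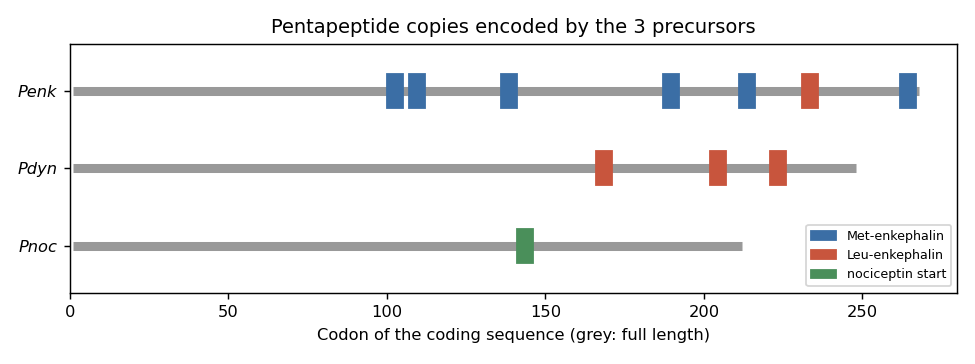
Positions of the opioid core copies along the coding sequences of Penk, Pdyn and Pnoc, with codons on the x axis and grey bars for the full length. Penk carries 7 copies, Pdyn 3 and Pnoc 1.

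The receptors are separate genes with related coding sequences. Aligned in pairs, their coding sequences were between 64.7% identical (Oprk1 and Oprl1) and 71.9% identical (Oprm1 and Oprd1). The longest stretch shared without a mismatch was 25 bases (Oprk1 and Oprl1), and the other 5 pairs shared 17 to 23 bases. The sources used here give no read length.

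Total counts were 20897605 to 26428152 per library, with 24301 to 25616 genes detected, and 3 counts corresponded to 0.113 to 0.146 CPM (counts scaled to a common library size). The labelled tissue was checked against its markers. Of 12 lateral habenula markers all were detected, among them the orphan receptor gene Gpr151 at 352 to 426 CPM. Their means were higher in isolated libraries for 7 and lower for 5 (median log2 fold change 0.06, beside 0.0033 over all genes tested). The edgeR test called 0 of them. At an unadjusted p under 0.05 in edgeR, 5 were higher, Gpr151 included, and 0 lower, against 2.83% and 2.26% of all tested genes. Markers of the neighbouring medial habenula were also present, at a summed 1311 and 1411 CPM in the lower and higher of the group-housed libraries. In the isolated libraries they summed to 1797 and 1816 CPM. Of these 12 markers, none at 0, 11 had a higher mean in isolated libraries (median log2 fold change 0.42, beside 0.0033 over all genes tested). The same number were higher at an unadjusted p under 0.05 in edgeR, against 2.83% of all tested genes. The edgeR test called 2 of the 12, Chrnb3 and Slc5a7 (adjusted p = 0.0227 for each). They were the only genes called among the 17528 tested (0.0114%). All 14 thalamus markers had lower means in isolated libraries, with a summed 1872 to 2040 CPM in group-housed against 1507 to 1806 CPM in isolated libraries. Of these, 0 passed the edgeR test and 8 had an unadjusted p under 0.05, against 2.26% of all tested genes lower at that threshold. Their median log2 fold change was -0.44, beside 0.0033 over all genes tested. Calb2 (436 to 480 CPM), Slc17a6 (381 to 439 CPM) and Tcf7l2 (210 to 266 CPM) made the largest parts of their sum. These had small log2 fold changes, of -0.11, -0.09 and -0.02. Hippocampus and cortex markers summed to 261 to 271 CPM in group-housed and 280 to 291 CPM in isolated libraries. The largest parts were those of Fibcd1 (78.5 to 105 CPM), Prox1 (51.5 to 63.8 CPM) and Wfs1 (58.2 to 60.7 CPM). Other members were near the floor: Neurod6 and Tbr1 measured 0.567 to 1.37 CPM, and Lct and Spink8 did not pass the low-count filter. The marker lists were chosen with earlier results of these data known, so these shares only describe the libraries. In these bulk samples fewer cells of a type and less RNA per cell cannot be told apart. The part of neighbouring tissue in the opioid values below was not tested.

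The transcripts of the opioid system were present at very different levels. By merged exon length, Oprl1 stood highest at 27.8 ± 0.983 RPKM (CPM divided by length in kilobases; mean and SD over all 4 libraries, for this and the next 6 values). Penk followed at 12.7 ± 1.34 RPKM. Next came Pdyn at 5.104 ± 2.105 RPKM and Oprm1 at 4.53 ± 0.343 RPKM, whose ranges over libraries overlapped, so that these neighbours in the order were not separated. Oprk1 measured 1.30 ± 0.299 RPKM, Pnoc 0.631 ± 0.191 and Oprd1 0.188 ± 0.0315. The ranges of all other neighbours in this order did not overlap.

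The place of Oprm1 depended on the length used. Its merged exons span 8037 bases over 31 annotated transcripts, the longest of which has 2420 bases. Per longest transcript it stood at 15.1 RPKM, beside 14.4 for Penk and above 6.18 for Pdyn. Oprl1 remained first at 33.7 RPKM, Oprk1 stood at 2.55, and Pnoc and Oprd1 kept their values because their longest transcript is their merged length.

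**Figure D2:**
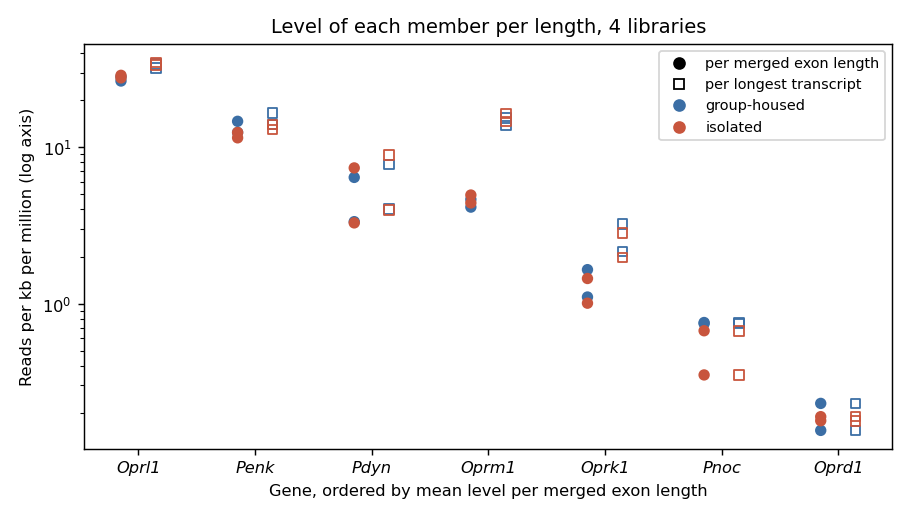
Level of each gene in RPKM on a log axis, 1 point per library, filled for merged exon length and open for the longest transcript. Oprl1 is highest and Oprd1 lowest by either length, whereas Oprm1 moves from a mean of 4.53 to 15.1.

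Nociceptin transcripts and those of their receptor stood far apart within each library. The level of Oprl1 per kilobase was 35.5 and 37.3 times that of Pnoc in the group-housed libraries, and 43.0 and 79.3 times in the isolated replicates 1 and 2. Among tested genes, 85.6% had a lower mean CPM than Oprl1, and 9.46% a lower mean CPM than Oprd1. Oprm1 per kilobase was 18.0 to 30.0 times Oprd1 by merged exons and 59.7 to 99.6 times by the longest transcript. The Oprm1 transcript was thus the higher of these mu and delta receptor genes in all 4 libraries by either length.

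None of the 7 genes passed the test of isolated against group-housed libraries. With edgeR (quasi-likelihood, p-values adjusted over all genes by Benjamini-Hochberg), 0 of 7 were called, 0 had an unadjusted p under 0.05, and the smallest adjusted p was 0.979. DESeq2, limma-voom and edgeR's exact test each also called 0, with 0 at an unadjusted p under 0.05. DESeq2 gave no adjusted p for 2 of the 7. Of all genes tested, 0.0114% were called higher and 0% lower. The mean was higher in isolated libraries for 3 of 7 genes and lower for 4; the median log2 fold change was -0.04, beside 0.0033 over all genes tested. The housing groups did not overlap for Penk and Pnoc, both lower in isolation, against 16.3% of all tested genes lower without overlap. None of the 7 was higher without overlap, against 17.4% of all tested genes.

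Among the precursors, Penk (ENSMUSG00000045573, chr4:4133531-4138819, minus strand) had the steadiest level. It measured 23.9 and 20.308 CPM in group-housed and 20.301 and 18.8 CPM in isolated libraries, from 491 to 533 counts. Group-housed replicate 1 stood highest, and the 2 groups all but touched. The means were 22.1 ± 2.56 and 19.5 ± 1.08 CPM (SD, n = 2 per group), with a log2 fold change of -0.18 (SE 0.11, 95% interval -0.42 to 0.07, edgeR adjusted p = 0.979). The interval corresponds to 0.748 to 1.05 times the group-housed level. Without group-housed replicate 1 the log2 fold change was -0.06. Of its merged exon length, 14.3% is shared with the antisense gene A830012C17Rik, which had 0 to 2 counts per library.

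Pdyn (ENSMUSG00000027400, chr2:129686565-129699844, minus strand) varied within the groups rather than between them. It measured 9.65 and 18.5 CPM in group-housed and 21.3 and 9.48 CPM in isolated libraries. Group-housed replicate 2 and isolated replicate 1 were thus high and the other 2 libraries low. The counts were 198, 476, 559 and 251, and the 95% Poisson counting intervals of the high libraries (16.9 to 20.3 and 19.6 to 23.1 CPM) did not reach those of the low libraries (8.35 to 11.1 and 8.34 to 10.7 CPM). The 2 group-housed libraries differed 1.92-fold and the 2 isolated libraries 2.25-fold.

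The means of Pdyn were 14.1 ± 6.27 CPM in group-housed and 15.4 ± 8.35 CPM in isolated libraries (SD, n = 2 per group), with a log2 fold change of 0.11 (SE 0.37, 95% interval -0.73 to 0.95, edgeR adjusted p = 0.9998). Its within-group SD of log2 CPM was 0.75, larger than that of 99.8% of the 4051 tested genes whose mean CPM lay within 2-fold of its own. The direction turned with the libraries used. The log2 fold change was -0.27 without group-housed replicate 1 and -0.59 without isolated replicate 1, but 0.66 without group-housed replicate 2 and 0.58 without isolated replicate 2. Per kilobase, Pdyn stood at 0.228 and 0.516 times Penk under group housing and at 0.594 and 0.286 times Penk under isolation, so the balance of the dynorphin and enkephalin precursors differed between libraries of the same housing.

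Pnoc (ENSMUSG00000045731, chr14:65400673-65425472, minus strand) was measured with few counts, 33 and 42 in group-housed and 38 and 20 in isolated libraries. These correspond to 1.61 and 1.63 CPM and to 1.45 and 0.755 CPM. Isolated replicate 2 stood apart from the other 3 libraries, although its counting interval (0.461 to 1.17 CPM) overlapped those of group-housed replicate 1 (1.11 to 2.26 CPM) and isolated replicate 1 (1.02 to 1.99 CPM). It ended just below that of group-housed replicate 2 (1.18 to 2.21 CPM). The means were 1.62 ± 0.0180 and 1.10 ± 0.489 CPM (SD, n = 2 per group), with a log2 fold change of -0.56 (SE 0.34, 95% interval -1.34 to 0.23, edgeR adjusted p = 0.985). Without isolated replicate 2 it was -0.16, and without isolated replicate 1 it was -1.10. The median of the thalamus markers was also lowest in isolated replicate 2, at -0.45 log2 units from their mean over libraries, against 0.13, 0.31 and 0.01 in the other libraries. This was not particular to them. The lateral habenula (-0.14) and striatum (-0.09) marker lists were lowest there too, as were Penk, Pdyn and Oprk1.

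**Figure D3:**
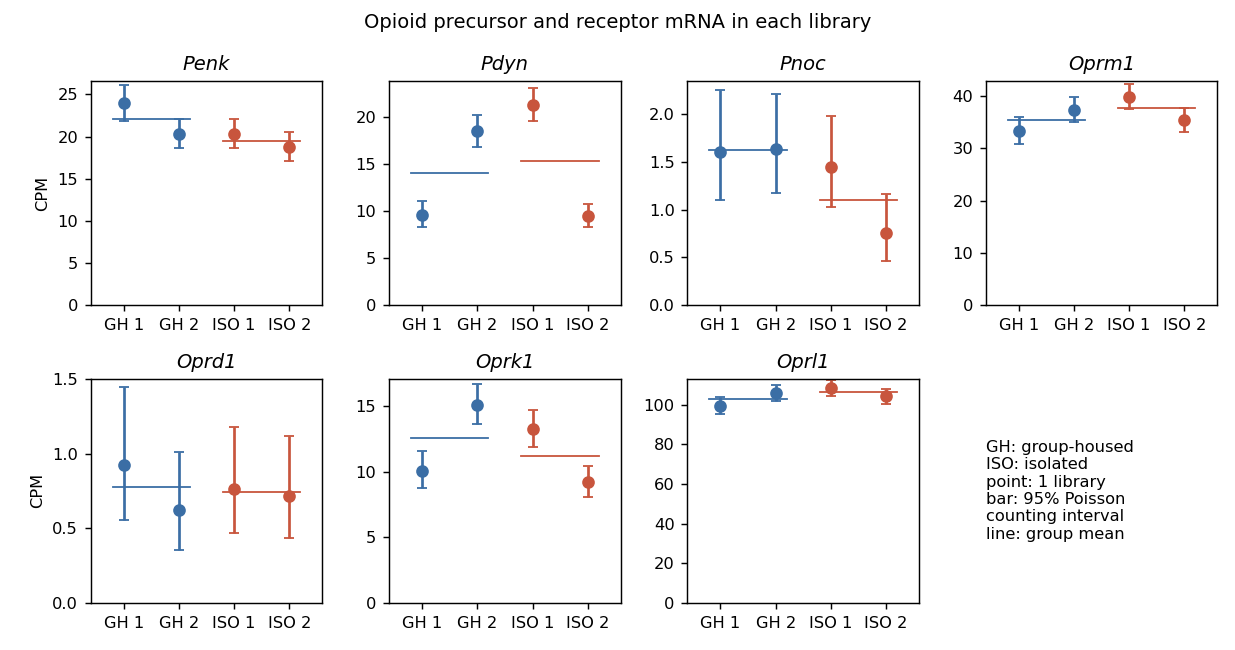
CPM of the 7 genes in each library (GH group-housed, ISO isolated), with 95% Poisson counting intervals and group means as lines. Pdyn, Oprk1, Oprm1 and Oprl1 are highest in group-housed replicate 2 and isolated replicate 1, with the wider gaps in Pdyn and Oprk1, and no gene separates the housing groups clearly.

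Among the receptors, the mu receptor gene Oprm1 (ENSMUSG00000000766, chr10:6758506-7038198, plus strand) measured 33.3 and 37.3 CPM in group-housed and 39.8 and 35.4 CPM in isolated libraries. The groups overlapped, with isolated replicate 1 highest and group-housed replicate 1 lowest. The log2 fold change was 0.09 (SE 0.09, 95% interval -0.12 to 0.30, edgeR adjusted p = 0.9998), an interval of 0.920 to 1.23 times the group-housed level. Of its exon length, 1.19% is shared with the opposite-strand gene Ipcef1. The median of the medial habenula markers lay at -0.13 and -0.25 log2 units from their mean in group-housed and at 0.21 and 0.23 in isolated libraries. Like these markers, Oprm1 had a higher mean in isolated libraries (37.6 against 35.3 CPM). Within each group, where the libraries differed 1.12-fold in Oprm1, the order was opposite to that of the marker medians. In the isolated libraries these medians lay close together. The part of the medial habenula in the Oprm1 values was not tested.

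The nociceptin receptor gene Oprl1 (ENSMUSG00000027584, chr2:181715016-181720985, plus strand) was the most evenly measured of the 7. It gave 99.5 and 106 CPM in group-housed and 108 and 104 CPM in isolated libraries, from 2041 to 2840 counts. The groups overlapped and the libraries of a group differed by at most 1.06-fold. The log2 fold change was 0.05 (SE 0.06, 95% interval -0.10 to 0.19, edgeR adjusted p = 0.9998). This interval corresponds to 0.935 to 1.14 times the group-housed level.

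The delta receptor gene Oprd1 (ENSMUSG00000050511, chr4:132110726-132144486, minus strand) was near the lower limit of what could be tested. It had 19 and 16 counts in group-housed and 20 and 19 in isolated libraries, or 0.926 and 0.622 CPM and 0.762 and 0.718 CPM. The values of both isolated libraries lay between those of the group-housed ones. The log2 fold change was -0.04 (SE 0.36, 95% interval -0.86 to 0.77, edgeR adjusted p = 0.9998). The interval corresponds to 0.551 to 1.71 times the group-housed level. It was wide, with few counts and 2 libraries per group, and is not a limit of detection. The sign turned without group-housed replicate 1 (0.25) and without isolated replicate 2 (0.00054).

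The kappa receptor gene Oprk1 (ENSMUSG00000025905, chr1:5588466-5606131, plus strand) had its 2 highest libraries in common with Pdyn, which encodes its ligands. Oprm1 and Oprl1 shared this order with narrower spans, and their counting intervals overlapped between group-housed replicate 2 and isolated replicate 2. Thus 4 of the 7 genes had it, Pdyn included, whose values defined it, against 14.1% of all tested genes. In the pathway lists read below, 8 of 18 effectors (44.4%), 4 of 13 peptidases (30.8%) and 6 of 21 G protein and RGS genes (28.6%) had it. So did 2 of 7 receptor kinases and arrestins (28.6%), 1 of 11 processing genes (9.09%) and 0 of 4 other ligands and receptors. Oprk1 measured 10.1 and 15.1 CPM in group-housed and 13.3 and 9.22 CPM in isolated libraries, from 207, 388, 348 and 244 counts. Group-housed replicate 2 and isolated replicate 1 were again the high libraries, and their counting intervals (13.6 to 16.7 and 11.9 to 14.7 CPM) lay above those of the low libraries (8.76 to 11.6 and 8.10 to 10.4 CPM). The group means were 12.6 ± 3.54 and 11.2 ± 2.86 CPM (SD, n = 2 per group), with a log2 fold change of -0.17 (SE 0.22, 95% interval -0.67 to 0.33, edgeR adjusted p = 0.9998). The value was 0.15 without group-housed replicate 2, 0.06 without isolated replicate 2 and -0.46 without isolated replicate 1. Its within-group SD of log2 CPM, 0.39, exceeded that of 97.6% of the 3721 tested genes of like mean CPM.

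**Figure D4:**
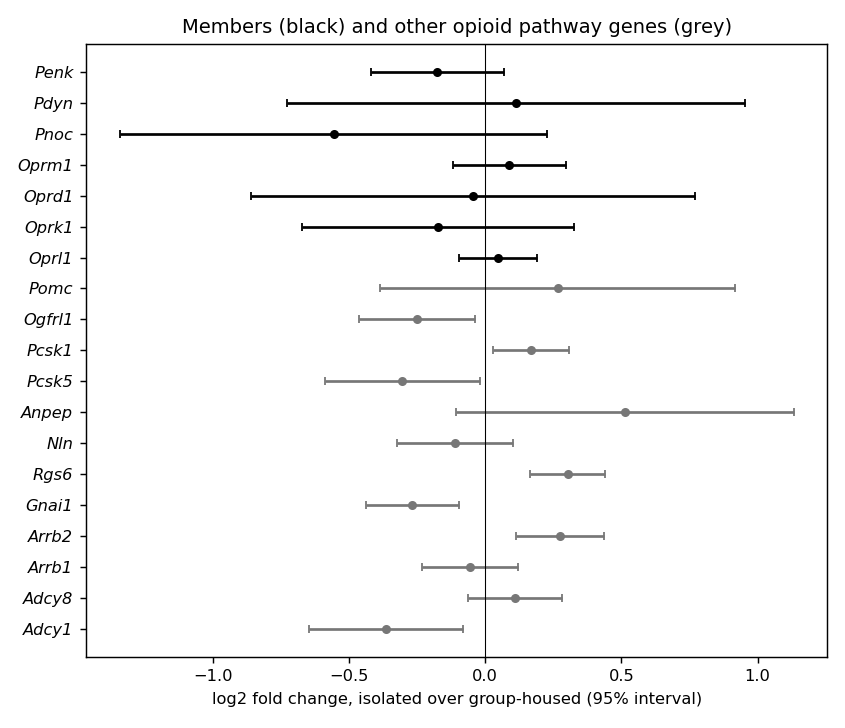
Log2 fold change of isolated over group-housed libraries with 95% intervals from the edgeR fit, for the 7 genes (black) and other genes of the opioid pathway (grey). Each of the 7 intervals includes 0, and those of Oprl1 and Oprm1 are the narrowest among the 7.

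The likeness of Pdyn and Oprk1 was described by the distance between profiles, that is, between log2 CPM values over the 4 libraries after subtraction of each gene's mean. Among 12234 tested genes with a mean of at least 5 CPM, Oprk1 was the 15th nearest to Pdyn, whereas Pdyn, whose span of 1.16 log2 units exceeds the 0.71 of Oprk1, was the 5281st nearest to Oprk1. The 3 genes nearest to Pdyn were Ctxn3, the perilipin gene Plin4 and Kcnj5, a subunit of G-protein-gated potassium channels. Kcnj5 measured 16.04 and 22.3 CPM in group-housed and 22.8 and 12.4 CPM in isolated libraries. The 3 nearest to Oprk1 were Fkbp5, a co-chaperone of the glucocorticoid receptor, the receptor tyrosine kinase gene Mertk and the sulfatase gene Sulf1. Fkbp5 measured 25.98 and 40.2 CPM in group-housed and 34.0 and 23.4 CPM in isolated libraries. With 4 libraries a close profile is a description of these libraries only.

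None of the 9 marker lists had a median above its mean in just group-housed replicate 2 and isolated replicate 1, the libraries high for Pdyn and Oprk1. Single markers did have these as their 2 highest libraries, 9 of 92 in all (9.78%, against 14.1% of all tested genes), and the share differed between lists. It was 5 of 14 thalamus markers (35.7%), namely Lef1, Tcf7l2, Synpo2, Ntng1 and Slc17a6. It was 2 of 10 hippocampus and cortex (20%), 1 of 9 striatum (11.1%) and 1 of 7 choroid plexus markers (14.3%). The medial habenula, lateral habenula, astrocyte, oligodendrocyte and ependyma lists had 0. In the hippocampus and cortex list C1ql3 measured 22.5 and 36.3 CPM in group-housed and 29.2 and 16.7 CPM in isolated libraries. In the striatum list Foxp1 measured 33.6 and 40.3 CPM in group-housed and 38.1 and 30.8 CPM in isolated libraries. C1ql3 and Foxp1 were picked after their values were seen. The median of the hippocampus and cortex list lay at -0.15 and -0.01 log2 units in group-housed and 0.10 and -0.07 in isolated libraries, so its highest library was also isolated replicate 1. The striatum list, relevant because striatal neurons express Penk and Pdyn strongly, lay between -0.09 and -0.03 in all 4 libraries, although the means of its members did not share a direction. Drd1 measured 4.12 to 5.36 CPM and Adora2a 1.03 to 1.62 CPM over the libraries. Ppp1r1b measured 42.5 and 38.0 CPM in group-housed and 54.8 and 49.9 CPM in isolated libraries (edgeR adjusted p = 0.409), whereas Drd2 measured 11.4 and 11.6 CPM and then 9.56 and 7.29 CPM (edgeR adjusted p = 0.840). Choroid plexus markers were highest in group-housed replicate 2 (0.57) and lowest in group-housed replicate 1 (-0.47), with -0.13 and 0.20 in the isolated libraries. Their part in the spread of Pdyn and Oprk1 was not tested.

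**Figure D5:**
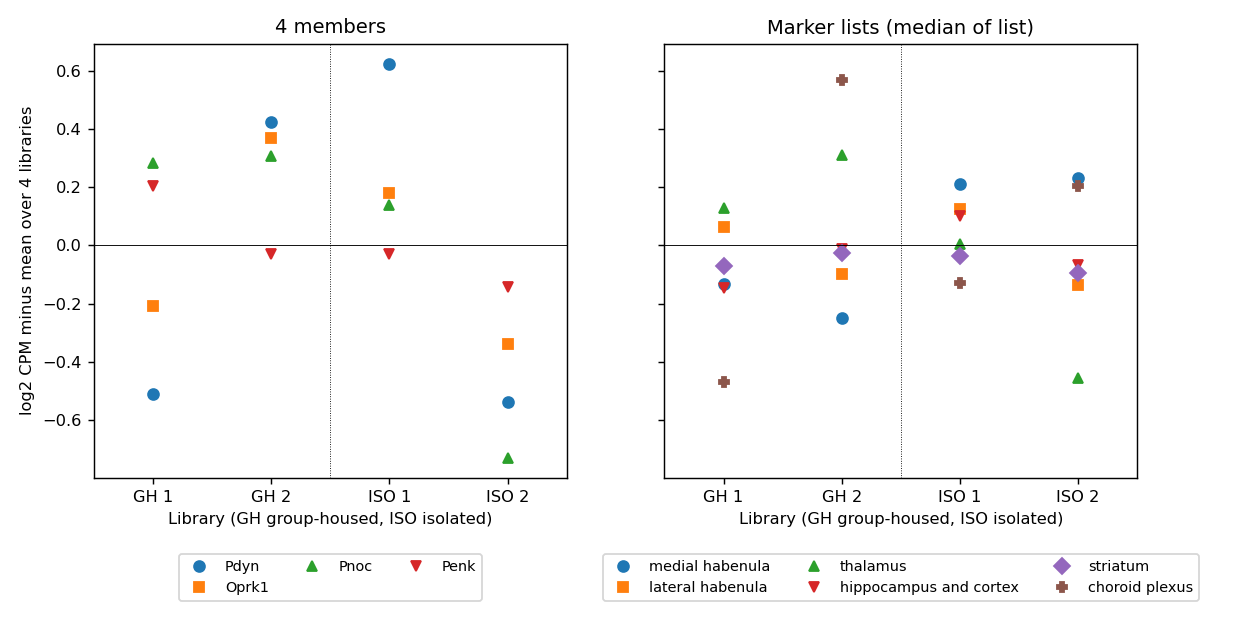
Log2 CPM of 4 members (left) and the median of 6 marker lists (right) in each library, relative to the mean over the 4 libraries. Pdyn and Oprk1 are above 0 in group-housed replicate 2 and isolated replicate 1 and below 0 in the other 2. All 4 members are lowest in isolated replicate 2, as are the thalamus, lateral habenula and striatum lists.

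For Pnoc the nearest profiles were those of Ptk2b, Kcnf1 and Ramp3. Ramp3 stands in the list of thalamus markers and measured 25.7 and 28.2 CPM in group-housed and 20.4 and 12.6 CPM in isolated libraries. For Oprd1 they were Ccdc151, Popdc3 and the heat shock gene Dnajb1, against the small counts of Oprd1 itself. The spans of Penk, Oprm1 and Oprl1 over the 4 libraries were under 0.5 log2 units, and no nearest genes were named for them.

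Other genes of the opioid pathway did not pass either. Of 74 genes tested in 6 lists, 25 had a higher and 49 a lower mean after isolation (median log2 fold change -0.03, beside 0.0033 over all genes tested). Over all tested genes 8981 had a higher and 8547 a lower mean. In edgeR's quasi-likelihood test 0 were called, and 4 higher and 7 lower genes had an unadjusted p under 0.05, against 2.83% and 2.26% of all tested genes. DESeq2 and limma-voom called 0 and edgeR's exact test called 1, Rgs6.

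Of the other ligands and receptors, Pomc measured 1.22 and 1.09 CPM in group-housed and 1.26 and 1.51 CPM in isolated libraries. Its log2 fold change was 0.27 with an edgeR adjusted p = 0.9998. Ackr3, an atypical chemokine receptor that also takes up opioid peptides, measured 9.89 and 12.6 CPM in group-housed and 8.65 and 12.9 CPM in isolated libraries, so the groups overlapped. Ogfrl1, a relative of the opioid growth factor receptor gene, measured 111 and 111 CPM and then 103 and 83.8 CPM, with an edgeR adjusted p = 0.879.

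Of 11 genes for enzymes and cofactors that process peptide precursors, 3 had higher and 8 lower means (median log2 fold change -0.06), and edgeR called 0. Pcsk1, the prohormone convertase PC1/3, measured 105 and 112 CPM in group-housed and 122 and 122 CPM in isolated libraries. The groups did not overlap, and the log2 fold change was 0.17 (SE 0.06, edgeR adjusted p = 0.868). Pcsk2, the convertase PC2, measured 386 and 405 CPM and then 420 and 396 CPM, with overlapping groups. Its exons overlap 2 opposite-strand genes, Pcsk2os1 and Pcsk2os2, over 3.29% and 1.25% of their length. Pcsk5 measured 12.2 and 13.0 CPM in group-housed and 10.8 and 9.59 CPM in isolated libraries. Its log2 fold change was -0.30 (edgeR adjusted p = 0.933).

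Of 13 peptidases that can degrade opioid peptides, 5 had higher and 8 lower means (median log2 fold change -0.01), and edgeR called 0. Anpep, aminopeptidase N, measured 1.22 and 1.75 CPM in group-housed and 2.13 and 2.15 CPM in isolated libraries, with a log2 fold change of 0.51 and an edgeR adjusted p = 0.979. Nln, the neurolysin gene, had the smallest p among the lower ones, with a log2 fold change of -0.11 and an edgeR adjusted p = 0.9998.

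Downstream of the receptors, G proteins and their RGS regulators comprised 21 tested genes, 9 with higher and 12 with lower means (median log2 fold change -0.02), and edgeR's quasi-likelihood test called 0. Rgs6, a regulator that speeds the switching-off of Gi/o proteins, measured 95.3 and 99.7 CPM in group-housed and 121 and 119 CPM in isolated libraries. The groups did not overlap, and the log2 fold change was 0.30 (SE 0.06, edgeR adjusted p = 0.327). Gnai1, a Gi alpha subunit gene, measured 103 and 95.4 CPM and then 86.8 and 77.5 CPM, with a log2 fold change of -0.27 (SE 0.07, edgeR adjusted p = 0.685). Arrb2, the beta-arrestin 2 gene whose product binds activated opioid receptors, measured 48.4 and 46.5 CPM in group-housed and 59.5 and 55.4 CPM in isolated libraries. Its log2 fold change was 0.28 (SE 0.07, edgeR adjusted p = 0.570), and in its list of 7 kinases and arrestins 3 had higher and 4 lower means (median -0.03, 0 called). Arrb1 had a log2 fold change of -0.06 (edgeR adjusted p = 0.9998).

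Of 18 effectors, the channels, adenylyl cyclases and kinases that the receptors act on, 3 had higher and 15 lower means (median log2 fold change -0.03), and edgeR called 0. Leaving out isolated replicate 1 gave a median of -0.15, and leaving out isolated replicate 2 gave 0.05. Adcy1, a calcium-stimulated adenylyl cyclase, measured 155 and 160 CPM in group-housed and 141 and 103 CPM in isolated libraries. Its log2 fold change was -0.36 (edgeR adjusted p = 0.840). Isolated replicate 2 was its lowest library, as it was for the medians of the effectors and of the thalamus, lateral habenula and striatum markers. Adcy8 gave a log2 fold change of 0.11 with an edgeR adjusted p = 0.996. Rgs6, Arrb2 and Pcsk1 had their higher values in the same 2 libraries as the medial habenula markers, whose part in those values was not tested.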

How the data were processed

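The deposited matrix holds unnormalised counts for each Ensembl identifier and library, per the file headers, and every value here comes from those counts. Trizol-extracted RNA went into stranded mRNA libraries, per the labels' protocols. GRCm38, TopHat2 2.1.1, HTSeq, CASAVA and edgeR appear in the submitters' processing notes, which give no roles. The sources used here give neither the annotation release nor the strand setting of the counting. The deposited normalised files were not used. Symbols, positions and lengths were taken from GENCODE M21 (GRCm38), which gave a symbol for 53360 identifiers.

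CPM values used TMM-scaled library totals (factors 0.983 to 1.02). The test of isolation was edgeR 4.0.16 in R 4.3.3 (filterByExpr, glmQLFit, glmQLFTest, 2-sided, no covariate, Benjamini-Hochberg over all tested genes, threshold 0.05), with a common biological coefficient of variation of 7.20%. Standard errors are the log2 fold change over the square root of F. Alternatives were RLE scaling, DESeq2 1.42.0, limma-voom (limma 3.58.1), edgeR's exact test, other low-count filters, a replicate block and fits without each library. Counting intervals cover counting error only. Receptor coding sequences were aligned with Biopython 1.88.

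The members and the gene lists were chosen with earlier results of these data known. All 7 members were named, with Pomc, Ackr3, Pcsk1 and Pcsk2, the gene of smallest p in each direction of each pathway list, and the 3 nearest profiles of members spanning at least 0.5 log2 units (prior count 2). Adrbk1 and Adrbk2 are older symbols of Grk2 and Grk3. Astrocyte, oligodendrocyte and ependyma markers were also read, with median log2 fold changes of -0.12, -0.21 and 0.71; the ependyma list stood apart in isolated replicate 2, at 0.80 log2 units from its mean against -0.34 to -0.20 in the other libraries.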

Additional observations from a re-analysis of the deposited data

How the results depend on the processing

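The count of opioid genes called was 0 under all 11 alternatives. Counts over all genes moved more. The 2 higher and 0 lower genes became 42 and 11 with DESeq2, 67 and 15 with edgeR's exact test, and 15 and 0 with no low-count filter. Without 1 library they ranged from 0 to 151 higher and from 0 to 70 lower, the largest counts being those without isolated replicate 1 and the 0 higher that without group-housed replicate 1. The median log2 fold change of the 7 genes ranged from -0.23 to 0.08 over these fits. With the replicate number as a block the counts were 52 higher and 12 lower. The labels do not say that a number marks a shared source, and same-numbered libraries deviated from their group means with a correlation of 0.14 over 17528 genes. The block called none of the 7 genes. Of 76 refitted log2 fold changes of the 7 genes, 6 changed sign, all in fits without 1 library. Over those fits they ranged from -0.59 to 0.66 for Pdyn, from -0.46 to 0.15 for Oprk1 and from -0.33 to 0.25 for Oprd1, which the filter at a mean of 1 CPM removed. A lone library in such a fit is assumed to vary like the rest. With the longest transcript as gene length the mean levels became 33.7 RPKM for Oprl1, 15.1 for Oprm1, 14.4 for Penk and 2.55 for Oprk1. The median of 6 of the 7 gene lists, the 7 opioid genes included, took both signs over the fits without 1 library, and that of precursor processing stayed negative (-0.12 to -0.01). No list median changed sign under the other alternatives. Counts of 16 to 42 per library limit the precision for Oprd1 and Pnoc.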

Other observations

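Because Fkbp5 and Plin4 stood among the 3 genes nearest to Oprk1 and Pdyn, 13 genes known to respond to glucocorticoids were read after these values were seen, with no test. Zbtb16, a transcription factor gene, measured 14.3 and 42.0 CPM in group-housed and 46.2 and 10.7 CPM in isolated libraries. Hif3a measured 9.85 and 26.5 CPM in group-housed and 18.7 and 12.7 CPM in isolated libraries. In both genes group-housed replicate 2 and isolated replicate 1 were the higher libraries, as for Pdyn and Oprk1. Of the 11 genes other than Fkbp5 and Plin4, 4 had this order (36.4%, against 14.1% of all tested genes) and 7 did not. Tsc22d3 and Klf9 were the others that had it. Sgk1 and Per1 did not share this order, since Sgk1 measured 152 and 190 CPM and then 104 and 151 CPM, and Per1 80.4 and 94.7 CPM and then 76.7 and 86.1 CPM. Without Fkbp5 and Plin4, the median of the remaining 11 genes lay at -0.06 and 0.20 log2 units in group-housed and -0.11 and -0.05 in isolated libraries, highest in group-housed replicate 2.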
